A study of Mus musculus with 8 samples.

Results

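The Hox genes of the 4 mouse clusters were followed in the ventral prostate of transgenic and wild type mice. Members were all genes whose symbol in the array's annotation begins Hoxa, Hoxb, Hoxc or Hoxd followed by a digit, each read from the probe set that carries 1 symbol and has the highest mean over all 8 arrays. This gave 32 of the 12393 genes that the arrays measured, namely 31 coding genes and Hoxa11os, an RNA transcribed antisense to Hoxa11. Hox genes without a probe set of this kind among the values used are not members, and probe sets annotated to 2 Hox genes are described beside their neighbours. The tissue came from FVB mice aged 20 weeks. One group held 4 transgenic samples, which carry an activated form of the PI3-kinase subunit p110 beta and are described as mouse prostatic intraepithelial neoplasia (a precancerous growth of the gland's epithelium). The other held 4 wild type samples described as normal prostate. The promoter that drives the transgene is not given in the sources used here, and no label says that the arrays of a group came from different animals, so the p-values speak only of the spread among these arrays, part of which may be technical.

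Hox genes encode homeodomain transcription factors that give cells of the embryo their position along the head-to-tail axis. Within a cluster the genes are numbered by paralog group, and genes of high number are used in the posterior body, from which the urogenital tract forms. In the mouse prostate Hoxb13 is needed for the secretory epithelium of the ventral lobe, and Hoxa13 and Hoxd13 take part in forming the lobes and their branches. Hoxa10 and Hoxa11 set the identity of male accessory glands and ducts. Hox proteins bind DNA together with TALE homeodomain partners of the Pbx and Meis families, and Polycomb and Trithorax complexes hold the clusters off or on.

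Most Hox genes gave low signal in this tissue. Values are log2 RMA units, and because each probe set has its own affinity they are set only against the median of all probe sets on the same array, which lay between 5.40 and 5.51. Of the 32 members, 9 (28.1%) lay above that median on all 8 arrays, 2 on some arrays and 21 on none, while 51.5% of all 12393 genes lay above it on all 8. The 9 were Hoxa7, Hoxa9, Hoxa10, Hoxa11 and Hoxa11os of the Hoxa cluster on chromosome 6, Hoxb3 and Hoxb13 of the Hoxb cluster on chromosome 11, and Hoxc6 and Hoxc9 of the Hoxc cluster on chromosome 15. None of the 7 measured genes of the Hoxd cluster on chromosome 2 did so, and only Hoxd9 of them passed the median on any array, on 2 of 8. By paralog number, 6 of the 14 members of groups 9 to 13 lay above the median on all arrays, against 2 of 12 in groups 4 to 8 and 1 of 6 in groups 1 to 3. Both the 6 and the 14 include the antisense RNA Hoxa11os, which encodes no homeodomain protein and was placed by the number in its name. The 21 members below the median on every array had values between 2.99 and 5.43.

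**Figure D1:**
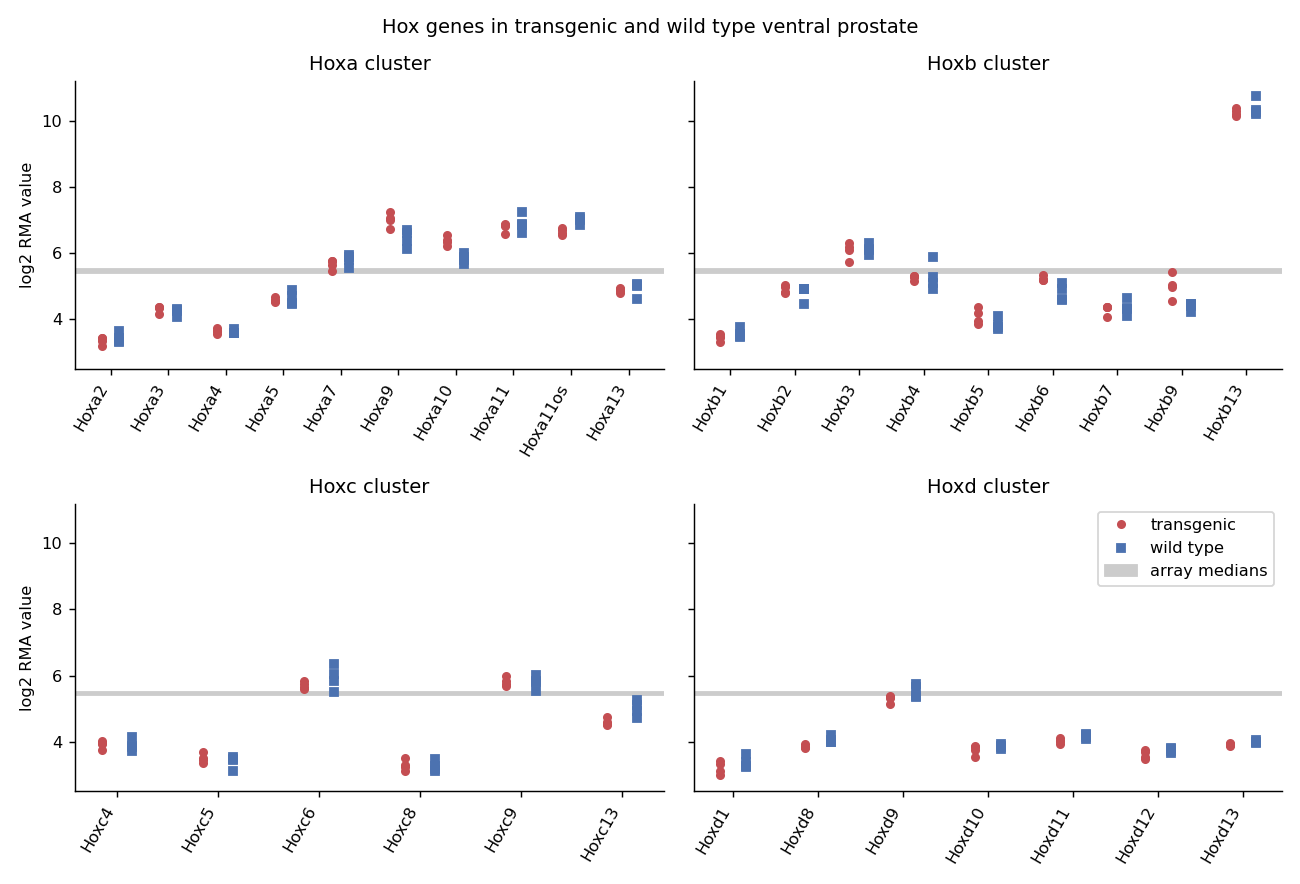
Log2 RMA values (vertical axes) of the 32 Hox members on each of the 4 transgenic (circles) and 4 wild type arrays (squares), 1 panel per cluster, genes in order of paralog number, with the range of the 8 array medians, 5.40 to 5.51, as a grey band. Hoxb13 lies above 10 on every array, the stretch Hoxa9 to Hoxa11os lies above the band with Hoxa7 at its upper edge, and the Hoxd genes lie below it except Hoxd9, whose wild type values reach past it.

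Hoxb13 stood far above the array median in both groups. Its values were 10.14, 10.19, 10.30 and 10.38 in transgenic prostates, against 10.76, 10.20, 10.27 and 10.32 in wild type prostates. The groups overlapped, and wild type array 1 was the highest of the 8. On each array Hoxb13 lay between the percentiles 96.8 and 98.0 of all probe sets. Its log2 fold change, transgenic minus wild type, was -0.14 ± 0.13 (SE; limma adjusted p = 0.640), with a 95% interval of -0.42 to 0.15, so a fall of more than 0.42 on the log2 scale lies outside the interval. The value was -0.012 without wild type array 1, -0.24 under quantile normalization and -0.37 with a stromal marker score as a covariate, and it passed under none of its 17 alternatives.

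The other genes of paralog group 13 lay below the median on all 8 arrays. Hoxa13 ran from 4.79 to 4.96 in transgenic samples and from 4.62 to 5.06 in wild type samples, and Hoxd13 from 3.87 to 3.95 in transgenic and from 3.98 to 4.05 in wild type samples. Their log2 fold changes were -0.06 ± 0.12 (SE; adjusted p = 0.849) and -0.10 ± 0.08 (SE; adjusted p = 0.599). Hoxc13, which in the mouse is known for its part in hair and nail growth, had values of 4.52, 4.61, 4.51 and 4.74 in transgenic samples, against 4.72, 4.94, 5.11 and 5.27 in wild type samples. The highest transgenic array just reached the lowest wild type array, and the log2 fold change of -0.41 ± 0.13 (SE) missed the threshold of 0.05 (adjusted p = 0.0617), although it passed in 5 of 16 alternatives. At these levels background can set the value, so a change of these genes may not be detectable.

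In transgenic prostates 4 of the 32 Hox genes rose, namely Hoxa9, Hoxa10, Hoxb6 and Hoxb9, and 0 fell (limma, Benjamini-Hochberg adjusted p under 0.05 over all probe sets). Of all 12393 genes 5.99% rose and 4.98% fell by the same rule, and of the 6380 genes above the array median on all arrays 8.73% rose and 7.59% fell. At an unadjusted p under 0.05, the 4 genes were higher and 3, Hoxa11os, Hoxc13 and Hoxd8, were lower. The share of all genes at that looser cut was not counted, so such counts, here and below, are description only. The median log2 fold change of the 32 members was -0.06, beside -0.04 over all genes. Groups did not overlap for the same 4 genes with transgenic higher and for 3, Hoxa11os, Hoxd8 and Hoxd13, with transgenic lower, where 8.09% and 8.20% of all genes were so separated. All 4 rises were under 2-fold on this scale, between 1.36-fold and 1.53-fold.

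**Figure D2:**
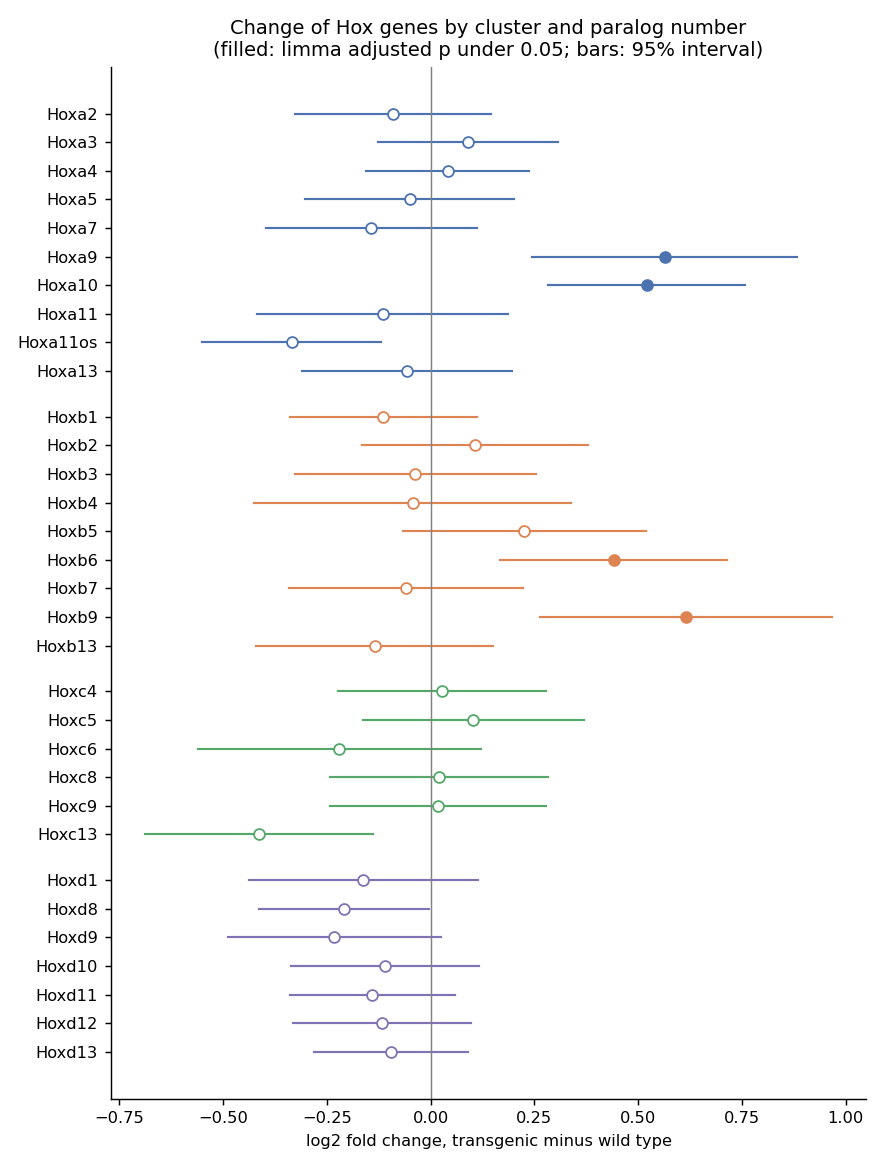
Log2 fold change, transgenic minus wild type (horizontal axis), of each Hox member with its 95% interval, grouped by cluster and ordered by paralog number from top to bottom. Filled points passed the limma threshold: Hoxa9, Hoxa10, Hoxb6 and Hoxb9 lie between 0.44 and 0.61, and the 7 Hoxd genes all lie left of 0.

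Hoxa10, a gene of urogenital tract identity, had 6.53, 6.20, 6.38 and 6.33 in transgenic prostates, against 5.89, 5.99, 5.68 and 5.80 in wild type prostates. Every transgenic array lay above every wild type array. The rise was 1.43-fold, or 0.52 ± 0.11 (SE) on the log2 scale (adjusted p = 0.0101), and it passed the threshold when any 1 of the 8 arrays was left out. By its name the probe set, like that of Hoxb6, matches several transcripts of the gene. In a bulk tissue a change in the share of cells that express a gene and a change in RNA per cell cannot be told apart.

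Hoxa9, the neighbour of Hoxa10 on the chromosome and a partner of Meis1 in blood cell progenitors, had 6.73, 7.00, 7.23 and 7.05 in transgenic samples, against 6.68, 6.60, 6.11 and 6.36 in wild type samples. The groups did not overlap, but the lowest transgenic array was close to the highest wild type array. The rise was 1.48-fold, 0.56 ± 0.15 (SE) on the log2 scale (adjusted p = 0.0311). The other Hoxa9 probe set, which also lay above the median on all arrays, averaged 6.47 ± 0.17 in transgenic and 6.39 ± 0.045 in wild type samples (SD, n = 4 each), with a log2 fold change of 0.08 ± 0.10 (SE; adjusted p = 0.748). The Hoxa9 probe sets therefore disagreed, and their mean missed the threshold (0.32, adjusted p = 0.0848). The call was also lost without transgenic array 2, 3 or 4 or wild type array 3 or 4 (adjusted p up to 0.102).

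Hoxa9 and Hoxa10 are neighbouring genes whose chosen probe sets both passed as higher, although the other Hoxa9 probe set did not. The 250 bases before each of their annotated starts are printed here because both genes were called (RefSeq, GRCm38.p6, minus strand, 5′ to 3′). Capitals mark matches on either strand to the motifs searched. Hoxa9 is chr6:52227371-52227620, and Hoxa10 has an upstream start, chr6:52240855-52241104, and a downstream start, chr6:52234940-52235189.
Hoxa9: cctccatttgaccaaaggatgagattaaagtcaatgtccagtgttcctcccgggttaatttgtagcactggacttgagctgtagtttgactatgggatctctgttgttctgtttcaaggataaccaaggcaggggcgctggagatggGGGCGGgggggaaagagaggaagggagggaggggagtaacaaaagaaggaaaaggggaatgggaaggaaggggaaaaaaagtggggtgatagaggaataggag
Hoxa10 upstream start: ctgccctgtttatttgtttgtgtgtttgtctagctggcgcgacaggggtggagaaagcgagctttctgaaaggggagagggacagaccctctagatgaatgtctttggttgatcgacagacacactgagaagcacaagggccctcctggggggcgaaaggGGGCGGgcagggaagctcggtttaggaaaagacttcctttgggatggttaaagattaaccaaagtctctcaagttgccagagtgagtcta
Hoxa10 downstream start: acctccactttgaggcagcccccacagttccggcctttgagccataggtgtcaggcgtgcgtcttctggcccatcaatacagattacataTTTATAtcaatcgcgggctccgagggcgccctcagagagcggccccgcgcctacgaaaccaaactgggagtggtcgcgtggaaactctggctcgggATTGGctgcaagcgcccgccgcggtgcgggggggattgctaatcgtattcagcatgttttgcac

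The motifs were searched on both strands, and CCAAT lies within the longer CCAATAAA. The GC box GGGCGG occurred 1 time each before Hoxa9 and before the upstream Hoxa10 start, and 32.7% of all 32851 promoter windows of this length hold it. The downstream Hoxa10 start had 1 TATA box, TATAAA, which 12.4% of windows hold, and 1 CCAAT box, which 33.9% hold. Neither gene's windows held the Hox-Pbx composite site TGATNNAT (7.68% of windows), the posterior Hox site CCAATAAA (1.02%) or the forkhead site TGTTTAC (3.17%). Among the 21 windows available for 19 of the 32 members, TGATNNAT occurred in 3, those of Hoxa2, Hoxb1 and the downstream Hoxd11 start. The GC content was 49.6% before Hoxa9 and 51.6% and 59.2% before the Hoxa10 starts, against a median of 52.4% over all windows. These matches describe the letters in the window only.

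On the other side of Hoxa10 lie Hoxa11 and its antisense RNA Hoxa11os, whose annotated spans overlap. Hoxa11os had 6.56, 6.60, 6.77 and 6.71 in transgenic samples, against 7.09, 6.84, 7.04 and 7.00 in wild type samples. All transgenic arrays lay below all wild type arrays, but the log2 fold change of -0.34 ± 0.10 (SE) did not pass over all probe sets (adjusted p = 0.0547), although it passed in 5 of 16 alternatives. Hoxa11 itself had 6.82, 6.87, 6.84 and 6.56 in transgenic samples and 6.59, 7.24, 6.84 and 6.89 in wild type samples, with overlapping groups and a log2 fold change of -0.12 ± 0.14 (SE; adjusted p = 0.719). Hoxa7, the next measured gene on the Hoxa9 side, was at -0.14 ± 0.12 (SE; adjusted p = 0.563). The remaining Hoxa members, Hoxa2 to Hoxa5, stayed below the median on all arrays and had log2 fold changes between -0.09 and 0.09, with 0 past the threshold. A further Hoxa3 probe set, dimmer still, was at -0.26 ± 0.10 (SE; adjusted p = 0.161).

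Hoxb9, a posterior gene of the trunk and mammary gland, had 5.43, 4.97, 4.55 and 5.04 in transgenic prostates, against 4.41, 4.21, 4.47 and 4.44 in wild type prostates. The wild type values were tightly grouped, and transgenic array 3 lay just above them. The rise was 1.53-fold, 0.61 ± 0.16 (SE) on the log2 scale (adjusted p = 0.0330), and the call was lost without transgenic array 1, 2 or 4 or wild type array 2, 3 or 4 (adjusted p up to 0.0896). Hoxb6, which acts in the thoracic skeleton and in blood progenitors, had 5.22, 5.33, 5.20 and 5.20 in transgenic samples, against 4.61, 4.57, 5.09 and 4.92 in wild type samples. The groups did not overlap, and the rise was 1.36-fold, 0.44 ± 0.13 (SE) on the log2 scale (adjusted p = 0.0476). That call was close to the threshold: it was lost without any 1 of 7 arrays, all but wild type array 3 (adjusted p up to 0.142), and with a mean-variance trend (adjusted p = 0.0534). Hoxb6 and Hoxb9 lay below the array median on all arrays, so their folds are approximate, and of the 4652 genes below the median on every array 1.76% passed in either direction.

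Between Hoxb9 and Hoxb6 on the chromosome lie Hoxb8 and Hoxb7. A probe set annotated to both, which cannot be assigned to either gene and belongs to no member, fell. It had 6.02, 5.58, 5.66 and 5.79 in transgenic samples, against 6.47, 6.66, 7.13 and 6.74 in wild type samples. Every transgenic array lay clearly below every wild type array, and the transgenic level was 0.505 times that of wild type, -0.99 ± 0.15 (SE) on the log2 scale (adjusted p = 0.00131). It passed the threshold in all 15 alternatives run on it, at -1.16 to -0.86. Hoxb7's own probe set, below the median on all arrays, was at 4.29 ± 0.15 in transgenic and 4.35 ± 0.22 in wild type samples (SD, n = 4 each), a log2 fold change of -0.06 ± 0.13 (SE; adjusted p = 0.859). Probe sets of this stretch thus differed: those of Hoxb9 and Hoxb6 rose, the shared probe set fell, and Hoxb7's own did not pass.

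**Figure D3:**
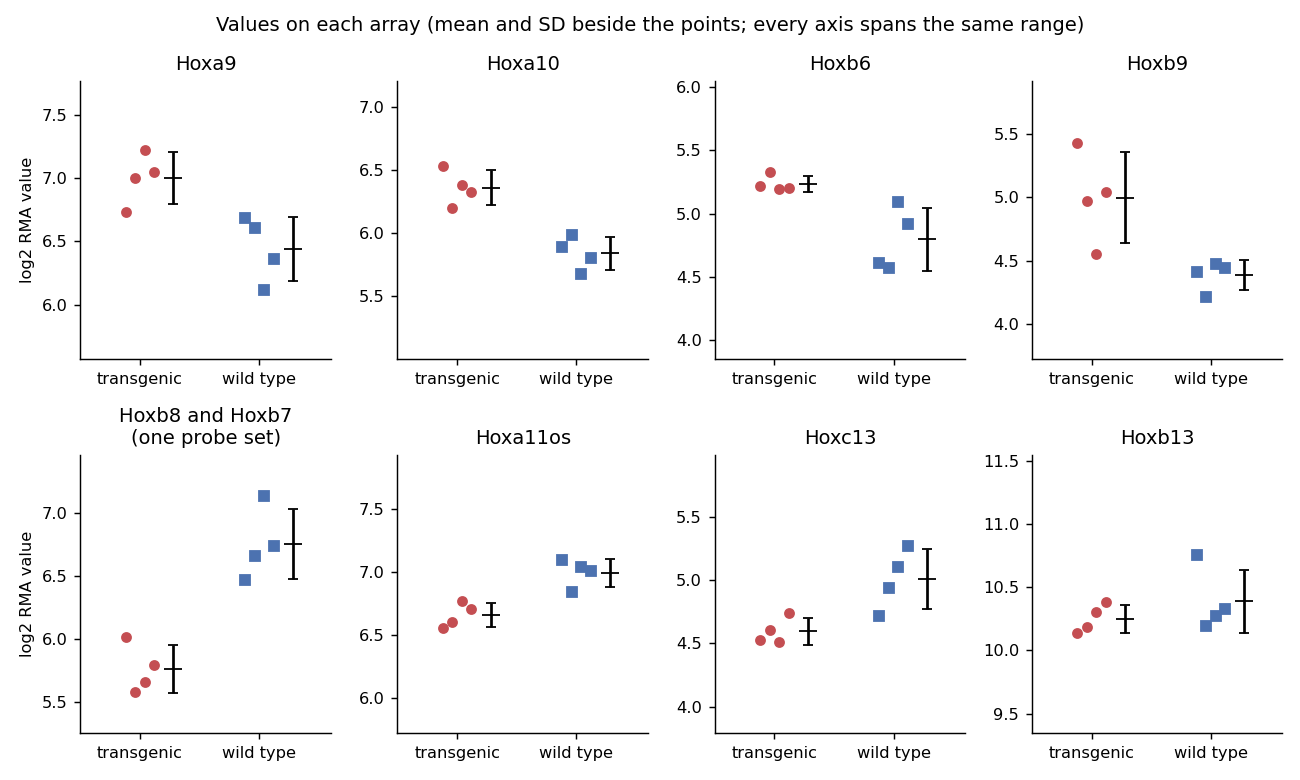
Log2 RMA values (vertical axes, each spanning the same range) on the 4 transgenic arrays (circles, left) and 4 wild type arrays (squares, right), with mean and SD beside the points. The groups are apart for Hoxa9, Hoxa10, Hoxb6, Hoxb9, Hoxa11os and the probe set shared by Hoxb8 and Hoxb7, touch for Hoxc13 and overlap for Hoxb13.

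The anterior Hoxb genes did not pass. Hoxb3, above the median on all arrays, ran from 5.74 to 6.31 in transgenic and from 5.95 to 6.31 in wild type samples, a log2 fold change of -0.04 ± 0.13 (SE; adjusted p = 0.921). Hoxb1, Hoxb2, Hoxb4 and Hoxb5 had log2 fold changes between -0.11 and 0.23. In the Hoxc cluster 0 of 6 genes passed. Hoxc6 ran from 5.60 to 5.84 in transgenic and from 5.51 to 6.34 in wild type samples (-0.22 ± 0.16, SE; adjusted p = 0.492), and Hoxc9 from 5.68 to 5.98 in transgenic and from 5.54 to 6.01 in wild type samples (0.02 ± 0.12, SE; adjusted p = 0.962). Hoxc6 had 3 probe sets, with log2 fold changes of -0.22, -0.17 and 0.09, and none passed.

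All 7 Hoxd genes had log2 fold changes below 0, from -0.23 to -0.10 with a median of -0.14. The median over all genes below the array median on every array was -0.05. Of the 7 Hoxd genes 0 passed and 1 had an unadjusted p under 0.05. That gene, Hoxd8, had 3.92, 3.83, 3.80 and 3.84 in transgenic samples, against 3.98, 3.98, 4.05 and 4.21 in wild type samples (-0.21 ± 0.09, SE; adjusted p = 0.229). Hoxd9, a limb and trunk gene, ran from 5.13 to 5.38 in transgenic and from 5.34 to 5.75 in wild type samples (-0.23 ± 0.12, SE; adjusted p = 0.294). Wild type array 4 had a lower quartile of all probe sets of 4.25 where the other 7 arrays lay between 4.01 and 4.16. Without that array the log2 fold changes were -0.16 for Hoxd8, -0.16 for Hoxd9 and -0.083 for Hoxd13, and for the other 4 Hoxd genes its part was not tested. Quantile normalization of all arrays gave -0.17 for Hoxd8, -0.20 for Hoxd9 and -0.061 for Hoxd13. The probe sets annotated to both Hoxd4 and Hoxd3 were at -0.10 and 0.02.

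Members of 1 paralog group can be set side by side by their own fold changes. In group 9 the log2 fold changes were 0.56 for Hoxa9, 0.61 for Hoxb9, 0.02 for Hoxc9 and -0.23 for Hoxd9, and the first 2 passed the threshold. The other Hoxa9 probe set was at 0.08 and did not pass. In group 10 they were 0.52 for Hoxa10, which passed, and -0.11 for Hoxd10, and in group 6 they were 0.44 for Hoxb6, which passed, and -0.22 for Hoxc6. A dim probe set such as that of Hoxd10 can understate a change. That a gene passed and its paralog did not is no test of a difference between them. Taken array by array, the differences of Hoxa9 and Hoxb9 from Hoxc9 overlapped between the groups. Those of Hoxa9 and Hoxb9 from Hoxd9, Hoxa10 from Hoxd10 and Hoxb6 from Hoxc6 did not.

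**Figure D4:**
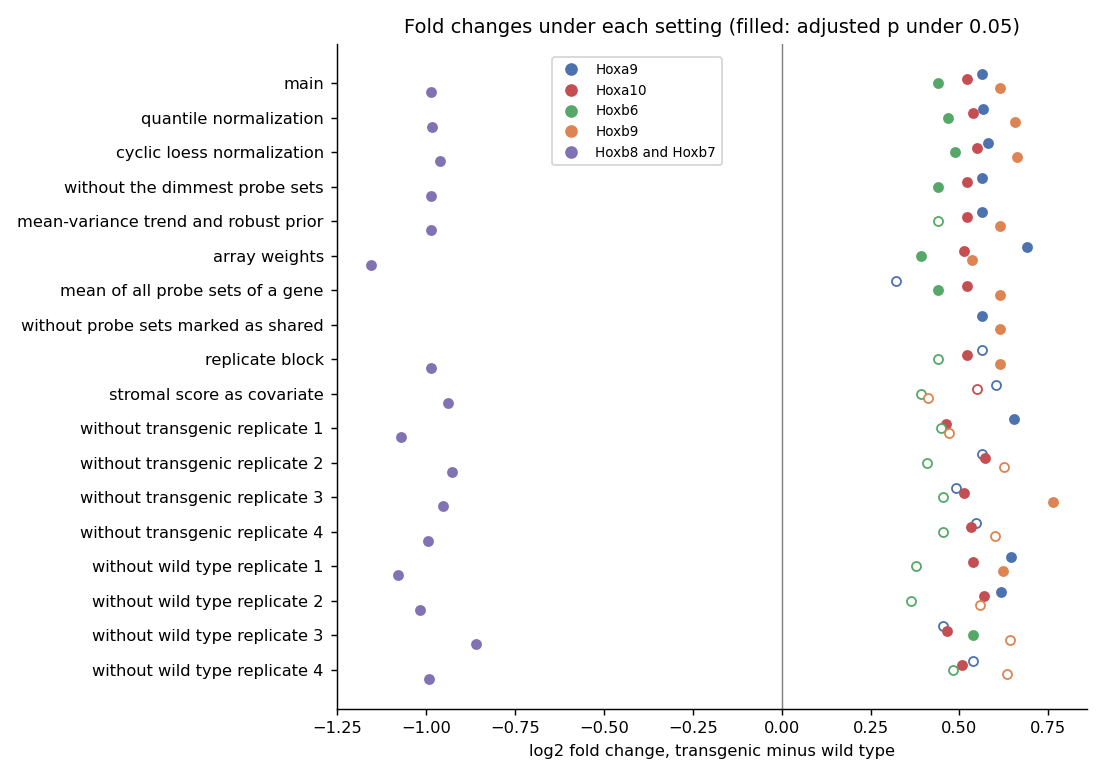
Log2 fold change, transgenic minus wild type (horizontal axis), of Hoxa9, Hoxa10, Hoxb6, Hoxb9 and the probe set shared by Hoxb8 and Hoxb7 under each setting run on them (vertical axis), filled where the adjusted p was under 0.05. The shared probe set is filled throughout, Hoxa10 is open with the stromal score as a covariate only, and every point keeps its side of 0.

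Few of the listed partners and regulators of Hox genes passed. Over all 12393 genes the shares were low too, 5.99% higher and 4.98% lower, and no list was tested against them. Among 9 measured TALE cofactors 0 passed in limma and 3 had an unadjusted p under 0.05. Meis1, a DNA-binding partner of Hoxa9, averaged 6.97 ± 0.17 in transgenic and 6.52 ± 0.22 in wild type samples (SD, n = 4 each). Its log2 fold change of 0.45 ± 0.13 (SE) missed the threshold (adjusted p = 0.0537), although the groups did not overlap, and it passed in 6 of 16 alternatives. Of 8 ParaHox and Evx genes, the relatives and neighbours of the clusters, 0 passed and 0 had an unadjusted p under 0.05; Cdx1 had the smallest p, at -0.11 (adjusted p = 0.663).

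Of 16 Polycomb genes 1 rose and 1 fell, 14 did not pass, and the list median was 0.04. Ezh2, the histone H3 lysine methyltransferase of the repressive complex, averaged 6.17 ± 0.11 in transgenic and 5.73 ± 0.16 in wild type samples (SD, n = 4 each; 0.44, adjusted p = 0.0261). Rbbp7, a histone-binding subunit shared with other complexes, averaged 10.69 ± 0.12 in transgenic and 11.25 ± 0.046 in wild type samples (SD, n = 4 each; -0.56, adjusted p = 0.00285). The Ezh2 call was lost without transgenic array 1, 2 or 3 or wild type array 2 or 3 (adjusted p up to 0.0899) and with the replicate block or the stromal covariate, and over its 17 alternatives the log2 fold change ran from 0.21 to 0.50 with an adjusted p of up to 0.5845. The Rbbp7 call held when any 1 of the 8 arrays was left out. The Rbbp7 probe set is of a kind whose probes may also bind other transcripts, and the call held without such probe sets. Of 6 Trithorax and demethylase genes 0 passed and 2 had an unadjusted p under 0.05. Men1, encoding menin, a partner of the methyltransferase that keeps Hoxa genes on in blood cells, was at -0.49 ± 0.14 (SE; adjusted p = 0.0527) and passed in 7 of 17 alternatives. Among 14 urogenital and prostate developmental factors 0 rose, 2 fell and 12 did not pass: Id4 fell by 2.22 on the log2 scale, and Bmp7, a signal that restrains prostate branching in mice, had a log2 fold change of -0.46 (adjusted p = 0.0438). The Bmp7 call held in 7 of 17 alternatives. It was lost without transgenic array 2 or 3 or wild type array 2, 3 or 4 (adjusted p up to 0.145), and under quantile and cyclic loess normalization, the mean-variance trend, the replicate block and the stromal covariate (adjusted p up to 0.299).

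Cell type markers differed between the same samples. Over all 12393 genes 5.99% rose and 4.98% fell by the same rule, and no marker list was tested against these shares. Of 10 luminal markers 5 rose and 0 fell, and their summed linear signal ran from 18930 to 19606 in transgenic and from 11770 to 13515 in wild type arrays. Of 11 basal markers 5 fell (939 to 1203 in transgenic, 1488 to 1626 in wild type), of 11 smooth muscle markers 3 fell (5427 to 7122 in transgenic, 7401 to 12920 in wild type) and of 12 fibroblast markers 2 fell (1828 to 2042 in transgenic, 2588 to 5184 in wild type), with 0 higher in each. A summed signal is led by its brightest genes and does not speak for a whole list. For smooth muscle these were Acta2 and Tagln, which did not pass (limma adjusted p = 0.120 and 0.258). For fibroblasts it was Dcn, which fell (limma adjusted p = 0.000224). Of 4 urothelial markers 1 fell, Upk1a, with a log2 fold change of -0.96. Of 4 genes listed as products of the prostate lobes 3 fell, with log2 fold changes of -1.72 for Msmb, -1.28 for Pbsn and -0.40 for Mme. Spink1, a product of the ventral lobe, ran from 13.34 to 13.71 in transgenic and from 13.79 to 13.94 in wild type arrays. Its log2 fold change of -0.33 did not pass (limma adjusted p = 0.0737). All 6 seminal vesicle markers, 6 of 8 endothelial and 7 of 8 neural markers lay below the median on all arrays, and none of these 3 lists had a call.

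With a per-array score of smooth muscle and fibroblast markers as a covariate, the log2 fold changes were 0.60 for Hoxa9, 0.55 for Hoxa10, 0.39 for Hoxb6 and 0.41 for Hoxb9. Without it they were 0.56, 0.52, 0.44 and 0.61 in the same order. With the covariate none of the 4 passed (adjusted p from 0.108 to 0.494), while the probe set shared by Hoxb8 and Hoxb7 was at -0.94 and did pass (adjusted p = 0.0453). The score ran from -0.40 to -0.17 in transgenic and from -0.17 to 0.77 in wild type arrays. It thus nearly separated the groups, so this fit can hardly tell genotype and score apart. Over all probe sets 941 passed with the covariate, against 2227 without it. As a sign of RNA quality, the control probe sets of Gapdh and beta actin were read at both transcript ends: the 3 prime minus 5 prime log2 difference ran from 0.97 to 1.40 in transgenic and from 1.34 to 1.56 in wild type arrays, and its part in these results was not tested.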

How the data were processed

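Ventral prostate RNA from 4 transgenic and 4 wild type samples was hybridised to Affymetrix mouse arrays, 1 per sample. The deposited log2 values come from RMA as the authors ran it; the submitters' processing notes name the method without a version. RMA equalises array distributions, so a change of all transcripts alike would be lost. The table held 22690 probe sets, and 64 control probe sets were left out. In the annotation 20380 probe sets had 1 symbol, 691 several and 1555 none.

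The linear model (limma 3.58.1, R 4.3.3; lmFit and eBayes, transgenic minus wild type) covered the remaining 22626 probe sets, with Benjamini-Hochberg adjustment over all of them and a threshold of 0.05. The number of arrays limits the precision. The fit was also run on simulated data with independent noise for each probe set. Such data hold no differences shared across an array, so that run does not vouch for the calls made here. Named were all measured genes of paralog group 13, those past the threshold, those above the array median on all 8 arrays, and the 4 with the smallest p among those not past the threshold. Of the lists, up to 4 members past the threshold or the 1 with the smallest p were to be named; the text prints a part of these, and a few further genes were chosen after their values were seen. The members, lists and rules were chosen with earlier results of these data known. Alternatives were other normalizations, filters, variance models, probe set choices, a stromal covariate, the replicate number as a block and leaving out each array.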

Additional observations from a re-analysis of the deposited data

Results flagged for a closer look

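A single array lay far from the other 3 of its group for 3 of the 32 combinations of group and named Hox gene screened, and chance gives about 1 in 20. Hoxa11 was at 6.56 on transgenic array 4, against 6.82 to 6.87 on the other transgenic arrays. Hoxb6 was at 5.33 on transgenic array 2, against 5.20 to 5.22 on the others, which lay close together. Without that array its log2 fold change was 0.41, beside 0.44 with it, and its call was lost (adjusted p = 0.142). The Hoxb6 call was also lost without arrays that were not flagged. Hoxa13 was at 4.62 on wild type array 1, against 5.02 to 5.06 on the others.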

How the results depend on the processing

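The count of Hox genes that rose, 4, was 2 without probe sets marked as shared between transcripts, which leaves 29 members and neither Hoxa10 nor Hoxb6, 0 with the stromal score as a covariate, 0 at an adjusted p under 0.01, and 1 to 3 when each array was left out. The count that fell, 0, was 2 under quantile normalization, with array weights and with probe sets averaged per gene, 1 under cyclic loess and without the dimmest 40% of probe sets (13 members left), and 0 to 1 when each array was left out, always Hoxa11os, Hoxc13 or both. The members above a reference level on all arrays, 9, numbered 4 at the 60th and 1 at the 75th percentile of each array. Of the 16 named genes, those that changed sign had small values: with the stromal score Hoxa7 was at 0.0026, Hoxa11 at 0.18 and Hoxa13 at 0.12, with array weights Hoxc9 was at -0.028, and leaving out each array gave -0.22 to 0.00022 for Hoxa11, -0.12 to 0.076 for Hoxb3 and -0.070 to 0.086 for Hoxc9. The cause was not tested. Same-numbered arrays shared only a number (correlations of their deviations from the group means of -0.31, 0.24, -0.20 and 0.33, and 1 of 4 transgenic arrays correlated best with its own number). With the replicate block, 2 Hox genes rose and 1797 probe sets passed, against 2227 without it. Under the same 18 alternatives, added after seeing the data, the members of a list past the threshold numbered 0 to 1 for TALE cofactors, 0 for ParaHox and Evx genes, 1 to 3 for Polycomb genes, 0 to 1 for Trithorax genes and 1 to 4 for developmental factors. Low signal over background limits what can be seen for the 21 members below the median on all arrays.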
